A study of Mus musculus with 16 samples.

Results

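Mettl21c, the gene of a protein methyltransferase of skeletal muscle, was followed array by array in mouse hamstring muscle after spinal cord injury. It was chosen by its measured values: in an earlier reading of these arrays its probe, ILMN_2986586, was lowered most by cord injury under both intramuscular injections. It is 1 gene of the 18117 on the array and has 1 probe of the 25697. Its levels with cord injury against sham surgery are therefore given as a description, with no test.

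The series holds 16 Illumina BeadChip arrays of whole hamstring muscle RNA from female mice, taken 2 days after surgery, 4 arrays in each of 4 groups. In SCI+CDTX the mice had a spinal cord injury (SCI) between vertebrae and an injection into the muscle of cardiotoxin (CDTX), which comes from snake venom and kills muscle fibres. SCI+Saline mice had the cord injury with a saline injection, Sham+CDTX mice had sham surgery with the toxin, and Sham+Saline mice had sham surgery with saline. Per the series design, bone forms in the muscle (neurogenic heterotopic ossification) only where cord injury and CDTX are combined. Strain and age are not given in the labels, which also do not say whether an array holds 1 animal or a pool, so p-values measure the spread between these samples. SCI+CDTX 2 was excluded from the authors' final analysis per the labels. Its Mettl21c values are given in the text, and it was left out of the fits.

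METTL21C belongs to the seven-beta-strand methyltransferases, enzymes that share 1 fold for binding the methyl donor S-adenosylmethionine. Many of them add methyl groups to lysines of proteins other than histones. METTL21C is found mainly in muscle, has been described in slow, MYH7-positive fibres, and methylates the ATPase VCP (p97), which extracts proteins for degradation, and chaperones of the Hsp70 family. Relatives have other substrates: METTL21A methylates Hsp70 chaperones, VCPKMT methylates VCP, and EEF1AKMT1 methylates the elongation factor eEF1A.

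The signal of this gene rests on the following probe, shown because all values of Mettl21c come from it. The file lists it under the older symbol A530098C11Rik, which the Entrez identifier links to Mettl21c. It is listed on chromosome 1, from 44066606 to 44066655 on the minus strand (band 1qC1.1, genome build not named in the file), starting at base 683 of the transcript. Whether these bases are coding or untranslated was not analysed here. Of its 50 bases, printed 5′ to 3′ in lower case, 28 are G or C.

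Mettl21c probe: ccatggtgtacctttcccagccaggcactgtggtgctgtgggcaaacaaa

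Among the 25696 other probes the longest stretch shared with it was 12 bases on the same strand, in a Dyrk1b probe, and 13 bases on the reverse strand, in a Tmem176a probe.

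All SCI arrays lay on 1 slide and all sham arrays on the other, so slide and surgery cannot be told apart. CDTX was compared with saline within a slide, but each slide held its CDTX arrays in 1 block of positions and its saline arrays in the other, so position and injection cannot be told apart. Mean raw intensity was 230.5 to 277 on the Sham+Saline arrays and 319.9 to 373.1 on the other arrays, and 11114 to 13694 probes were detected per array. The array SCI+CDTX 2 correlated less with its own group (median r = 0.951) than with Sham+CDTX (0.968). A score was taken of how the 2 brightest probes of 2740 genes differ on an array. It also set Sham+CDTX (0.35 to 0.39) and SCI+CDTX 2 (0.28) apart from the other arrays (-0.27 to -0.07). Results with the score as a covariate, over all 16 arrays, are given where they differ. Within groups the score varied mainly through SCI+CDTX 2, so these results rest largely on that array, which the authors excluded. They cannot tell the score from the Sham+CDTX group. All 10 muscle fibre markers (such as Ckm, Acta1 and Ryr1) were detected on all 16 arrays.

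Mettl21c was detected on all 16 arrays. It was bright in both sham groups and close to background after cord injury, lowest where cord injury and CDTX were combined. On the Sham+Saline arrays the raw mean bead intensity, before any background subtraction, was 736, 797.1, 919.9 and 940.8. Sham+CDTX arrays gave 636.9, 742.7, 706.7 and 834.8. These sham groups overlapped in raw intensity, although the Sham+Saline arrays as a whole were dimmer. SCI+Saline arrays gave 162.8, 184.6, 157.2 and 195.1. SCI+CDTX arrays 1, 3 and 4 gave 118.2, 114.6 and 130.3, and the left-out SCI+CDTX 2 gave 149.1. Every SCI array thus lay below every sham array, and every SCI+CDTX array, the left-out one included, lay below every SCI+Saline array.

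The SCI+CDTX signals were near the background of their arrays. The median intensity of undetected probes was 90.2 to 94.5 in Sham+Saline, 96.4 to 98.9 in Sham+CDTX, 100.2 to 101.6 in SCI+Saline and 98.6 to 104 in SCI+CDTX. The Mettl21c signal was 8.14 to 10 times that background in Sham+Saline, 6.61 to 8.44 times in Sham+CDTX, 1.55 to 1.95 times in SCI+Saline and 1.16 to 1.43 times in SCI+CDTX. Minus that background, its intensity was 756.8 ± 96.5 in Sham+Saline, 632.1 ± 81.4 in Sham+CDTX, 73.92 ± 18.4 in SCI+Saline and 26.88 ± 13.8 in SCI+CDTX (SD over 4 arrays in each group). The relative error was thus largest where the gene was lowest. Within an array, 28 to 53 beads carried the probe.

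**Figure D1:**
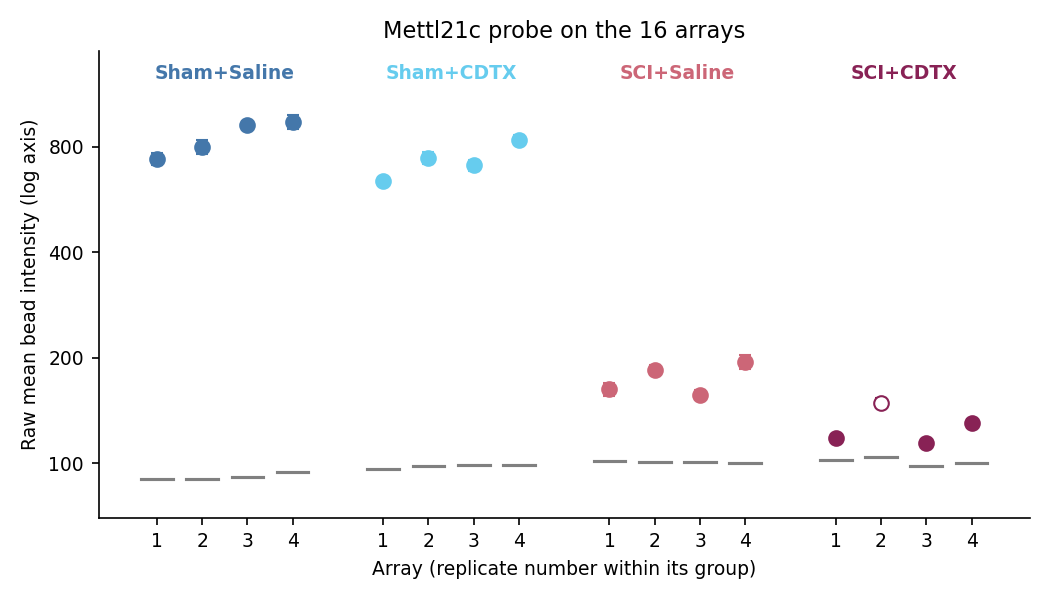
Raw mean bead intensity of the Mettl21c probe (log axis) on each of the 16 arrays, by group; bars are the standard error over beads, grey lines the array's median undetected probe, and the open circle SCI+CDTX 2. The 8 SCI arrays sit at 114.6 to 195.1 and the 8 sham arrays at 636.9 to 940.8.

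After background correction and quantile normalization over 15 arrays, the log2 level of Mettl21c was 10, 10.21, 10.14 and 10 on the Sham+Saline arrays. Levels were 8.97, 9.09, 8.98 and 9.34 in Sham+CDTX, 6.59, 6.96, 6.32 and 6.77 in SCI+Saline, and 4.79, 4.81 and 5.32 on SCI+CDTX arrays 1, 3 and 4. The group means stood in the order Sham+Saline (10.09 ± 0.1, SD, n = 4), Sham+CDTX (9.09 ± 0.17, n = 4), SCI+Saline (6.66 ± 0.27, n = 4) and SCI+CDTX (4.97 ± 0.3, n = 3). On this scale the 4 groups did not overlap, and 99.1% of the variance of the 15 values lay between group means. Much of that share follows from the choice of the gene by its difference between surgeries. When all 16 arrays were normalized together, SCI+CDTX 2 stood at 5.51, above the other SCI+CDTX arrays (4.81 to 5.35). That single array is below the whole range of SCI+Saline. It resembled Sham+CDTX in its overall correlations but not in Mettl21c, and it lay on the same slide as the other SCI arrays.

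The authors' deposited table of the final analysis gives the same order, with mean normalized intensities of 1005.2 in Sham+Saline, 566 in Sham+CDTX, 69.3 in SCI+Saline and 19.5 in SCI+CDTX. The lowest to highest values in the authors' deposited table were 14.2 to 29 in SCI+CDTX and 50.7 to 90.7 in SCI+Saline. In the authors' deposited table with all 16 arrays the SCI+CDTX mean was 23.9 and its highest array 36.2.

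Cord injury went with the lowest Mettl21c levels under both injections. In CDTX-injected muscle the log2 difference, SCI minus sham, was -4.12 (SE 0.17, 95% interval -4.48 to -3.76), 17.4-fold. In saline-injected muscle the difference was -3.43 (SE 0.16, 95% interval -3.76 to -3.09), 10.8-fold. Both falls ranked 1st among 14763 kept probes, which is how the gene was chosen. Fold changes of dim probes depend on the background step. Raw intensity minus background gave ratios of sham to SCI of 30.4 (15 arrays) or 23.5 (16 arrays) in CDTX muscle and 10.2 in saline muscle, and with no background correction the log2 differences were -2.29 and -2.57. The 2 comparisons share no arrays, but both set 1 slide against the other. In whole muscle, fewer cells of a type and less RNA per cell cannot be told apart.

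The genes next to Mettl21c in this ranking, by the smaller of their 2 falls, were Lsmem1, Perm1, Nrep, Aqp4 and Scn4b. Lsmem1, a small membrane protein gene, differed by -2.79 in CDTX muscle and -2.56 in saline muscle. For Perm1, a muscle regulator of mitochondrial genes, the differences were -2.30 and -3.29. Nrep, a gene of neural and regenerating tissue, differed by -2.17 and -3.16. Aqp4, the water channel of the fast fibre membrane, differed by -2.58 and -2.10, its probe being detected on 1 of 4 SCI+CDTX arrays, and Scn4b, a sodium channel beta subunit, by -1.95 and -2.57. The gap from Mettl21c to Lsmem1 in the smaller fall was thus from -3.43 to -2.56. Of all kept probes, 659 (4.46%) were called lower with SCI under both injections, as a description.

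**Figure D2:**
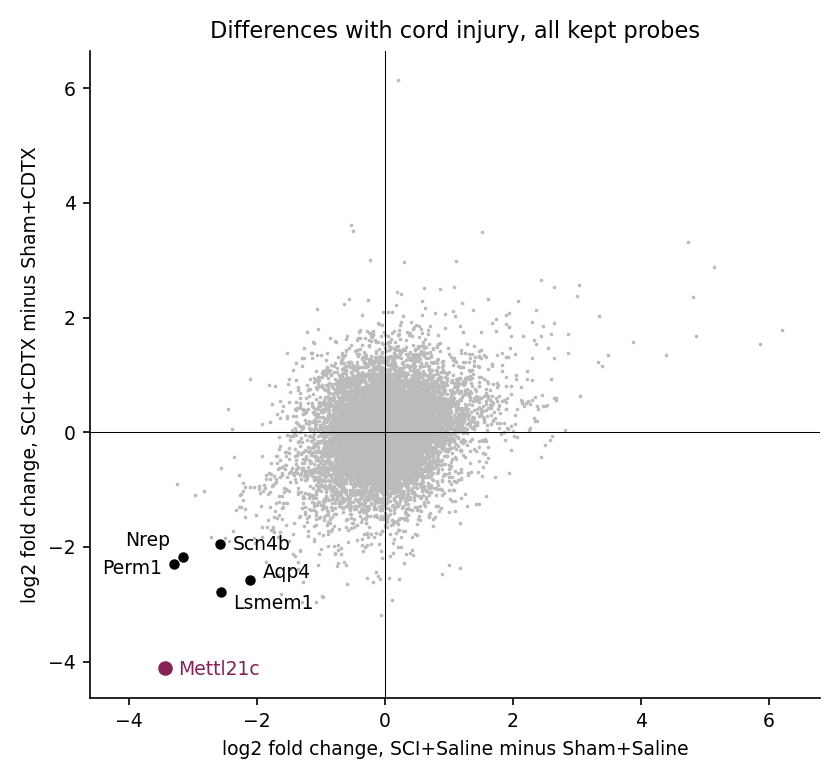
Log2 fold change with cord injury in saline muscle (horizontal) against CDTX muscle (vertical) for 14763 kept probes (grey), with Mettl21c and the 5 genes next in the ranking marked. Mettl21c lies at -3.43 and -4.12, below all other points on the vertical axis and left of all of them on the horizontal axis.

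CDTX was tested within each surgery, a contrast not used to choose the gene, though on the same arrays. Mettl21c fell with CDTX in sham mice, by 0.99 on the log2 scale (SE 0.16, 95% interval -1.33 to -0.66, 1.99-fold lower; limma, adjusted p = 4.38e-05). In that comparison 48.9% of all kept probes were called and 25.8% were called lower, and Mettl21c ranked 1095th from the lowest, so falls of this size were common. All 4 Sham+CDTX arrays were below all 4 Sham+Saline arrays on the normalized scale (exact permutation test, two-sided p = 0.0286, the smallest 4 against 4 arrays allow). Raw intensity minus background was only 1.2 times higher in Sham+Saline than in Sham+CDTX, and raw intensities of the 2 groups overlapped. The size of this fall and the separation of the groups thus depend on normalizing the arrays. Median scaling in place of quantile normalization gave -0.48, and the probe-pair score as covariate gave -1.79; both were still called. Under median scaling the median of all probes shifted by 0.32, and relative to it Mettl21c was at -0.80.

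In SCI mice the fall with CDTX was 1.68 on the log2 scale (SE 0.17, 95% interval -2.04 to -1.32, 3.21-fold lower; limma, adjusted p = 1.3e-06). Here 42.9% of kept probes were called and 22.5% were called lower, and Mettl21c ranked 87th from the lowest. All SCI+CDTX arrays were below all SCI+Saline arrays (exact permutation test, two-sided p = 0.0286, the smallest 3 against 4 arrays allow). With all 16 arrays, SCI+CDTX 2 included, the difference was -1.57, and with no background correction it was -0.61. Raw intensity minus background was 3.55 times higher in SCI+Saline than in SCI+CDTX over 15 arrays and 2.75 times higher over 16.

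The difference between the CDTX effects in SCI and sham mice was not stable. The interaction, which subtracts the CDTX difference in sham mice from that in SCI mice, was -0.69 (SE 0.23, 95% interval -1.18 to -0.20). It equals the difference between the SCI effects on which the gene was chosen, so it is given with no test; 23.6% of kept probes were called on this contrast. The value was -0.58 with all 16 arrays and -0.01 with the probe-pair score, and the sign turned with no background correction (0.28). With 1 array left out it ran from -0.85 to -0.58.

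**Figure D3:**
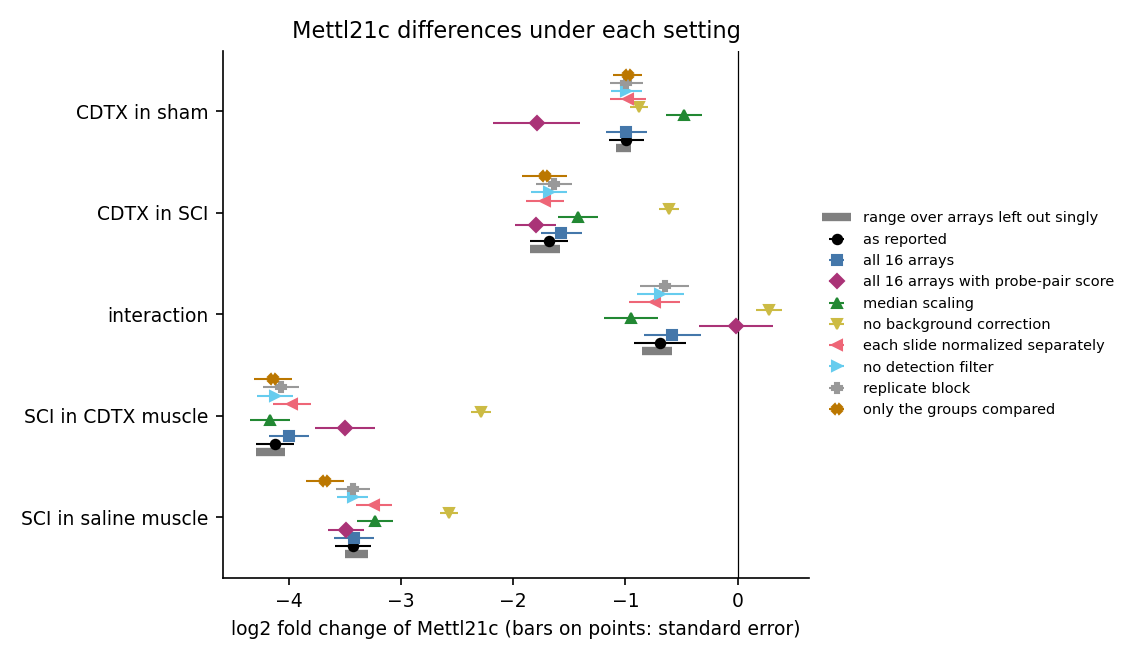
Log2 fold change of Mettl21c in each comparison, as reported (black) and under 8 other settings (points, bars are standard errors), with the range over arrays left out singly in grey. The 4 group differences lie below 0 under all settings shown, while the interaction runs from -0.95 to 0.28.

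Levels of other muscle genes and of other cell types moved between the groups as well, and their part in the Mettl21c difference was not tested. The mean log2 level of the 10 fibre markers was 13.24 ± 0.1 in Sham+Saline, 13.09 ± 0.11 in Sham+CDTX, 13.05 ± 0.13 in SCI+Saline (SD, n = 4 each) and 12.88 ± 0.2 in SCI+CDTX (SD, n = 3). Relative to that mean, Mettl21c stood at -3.13 ± 0.11, -3.96 ± 0.2, -6.35 ± 0.38 and -7.88 ± 0.33 in the same order, and at -7.71 on SCI+CDTX 2. The differences of these relative levels were -3.91 with SCI in CDTX muscle, -3.23 with SCI in saline muscle, -0.84 with CDTX in sham and -1.52 with CDTX in SCI. The 10 markers did not move alike. Ckm, Acta1, Mylpf, Tnnt3 and Myh4 had group means of 13.77 to 14.20 throughout. These were among the brightest genes listed, and whether such bright probes could follow a loss of fibres was not tested. The relative levels are therefore not a measure of Mettl21c per fibre. Mb, myoglobin, was called lower with CDTX in sham (-0.75) and in SCI (-1.28) and with SCI in CDTX muscle (-0.71). Ryr1, the calcium release channel, was called lower with SCI by -0.97 in CDTX muscle and -0.79 in saline muscle, and Pygm, muscle glycogen phosphorylase, with CDTX in sham by -1.33.

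Summed normalized intensity of the 8 kept of 9 monocyte and macrophage markers was 1084 to 2045 in Sham+Saline, 14013 to 17214 in Sham+CDTX, 826 to 3760 in SCI+Saline and 12240 to 17862 in SCI+CDTX (9545 on SCI+CDTX 2). It was thus high with CDTX under either surgery; Ccr2 was not kept, and Itgam was undetected in both saline groups. Of 8 neutrophil markers 6 were kept, Cxcr2 and Mmp8 not being kept. In Sham+Saline their sum varied widely (mean 2776). Lcn2, Retnlg and S100a9 were each detected on 1 of 4 arrays there, S100a8 and Csf3r on 3 and Mmp9 on 4. The sum was 83 to 10805 in Sham+Saline and 633 to 992 in Sham+CDTX. It was 2114 to 12761 in SCI+Saline and 3376 to 5789 in SCI+CDTX (2866 on SCI+CDTX 2). The 6 fibroadipogenic progenitor markers summed to 7521 to 15893, 20363 to 23800, 8154 to 13250 and 12105 to 15181 in the same order (19568 on SCI+CDTX 2). The 6 endothelial markers summed to 1369 to 1738, 790 to 875, 875 to 1022 and 1201 to 1607 (1017 on SCI+CDTX 2), with Kdr undetected in Sham+CDTX. Of 5 muscle precursor markers, Myod1 and Myog were kept and summed to 71 to 153, 381 to 543, 1020 to 1286 and 631 to 689 (779 on SCI+CDTX 2), all SCI arrays being above all sham arrays. In CDTX muscle that order came from Myog (1.23 with SCI), as Myod1 differed by -0.07 and was not called. Pax7 and Myf5 were undetected on all 16 arrays, and Cdh15 had no probe.

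Genes of slow fibres fell with CDTX and, in part, with cord injury. Of 9 kept slow fibre genes, 7 fell and 1 rose with CDTX in sham (median -1.61, all probes -0.04; 25.8% of kept probes were called lower and 23.1% higher), and 6 fell and 1 rose with CDTX in SCI (median -1.32, all probes -0.05; 22.5% lower and 20.4% higher). With SCI, 5 fell in CDTX muscle (median -0.72) and 5 in saline muscle (median -0.68), against 14.9% and 14.6% of kept probes called lower (14.9% and 14.8% higher, 29.8% and 29.5% in either direction). These SCI counts depended on the setting: in CDTX muscle 5 called genes became 2 with all 16 arrays and 0 with the probe-pair score, and in saline muscle 5 became 3 under 5 of 7 other settings (all 16 arrays, median scaling, no background correction, separate slides, no detection filter). Myl2, a slow and cardiac myosin light chain, differed by -2.31 with CDTX in sham, -3.07 with CDTX in SCI, -2.16 with SCI in CDTX muscle and -1.40 with SCI in saline muscle, called in all 4. Myh7, the slow myosin heavy chain, differed by -1.53, -0.84, -0.72 and -1.42 in the same order, also called in all 4. The Myh7 probe was detected on only 2 of 4 SCI+CDTX arrays. Tnnc1, slow troponin C, fell by 1.68, 2.13 and 1.13 in the first 3 comparisons and stood at -0.68 in saline muscle. Myl3, a slow myosin light chain, fell with CDTX by 2.08 and 1.78 and with SCI in saline muscle by 0.64, and stood at -0.34 in CDTX muscle. The gene that rose, named after its value was seen, was Tpm3, a tropomyosin also made outside muscle, higher by 2.50 and 2.20 with CDTX. With the probe-pair score, the SCI differences in CDTX muscle turned to 0.23 for Myl2, 0.87 for Myh7 and 0.83 for Tnnc1, none of them called. With all 16 arrays the calls of Myh7 for CDTX in SCI and of Myl3 for SCI in saline muscle were lost as well.

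The summed slow fibre signal was 15486 to 29861 in Sham+Saline, 6797 to 9638 in Sham+CDTX, 8824 to 20862 in SCI+Saline and 4598 to 5369 in SCI+CDTX (12319 on SCI+CDTX 2). SCI+Saline and Sham+CDTX overlapped in this sum. Whether slow fibre levels had a part in the Mettl21c differences was not tested. Of 12 fast fibre genes, 4 fell with SCI in CDTX muscle (median -0.04), 3 fell with SCI in saline muscle (median -0.12), 2 fell and 2 rose with CDTX in sham (median -0.10), and 2 fell with CDTX in SCI (median 0). Of all kept probes 14.9%, 14.6%, 25.8% and 22.5% were called lower in these comparisons, and the 4 in CDTX muscle became 2 with all 16 arrays and 0 with the probe-pair score. Casq1, the calcium buffer of the fast fibre's store, differed by -1.60 and -0.74 with CDTX in sham and SCI and by -1.34 and -2.19 with SCI in CDTX and saline muscle. Myh2, a fast oxidative myosin heavy chain, differed by -0.94, -0.65, -1.54 and -1.83 in the same order. Both were called in all 4, but with the probe-pair score neither was called for SCI in CDTX muscle nor Casq1 with CDTX, and with all 16 arrays Myh2 was not called for CDTX in SCI. Myh1, another fast myosin, rose by 0.70 with CDTX in sham and fell with SCI by 1.31 and 0.55, its signs in the sham and CDTX muscle comparisons turning with the probe-pair score. Actn3, the fast fibre actinin, fell by 0.47 with SCI in CDTX muscle and lost that call with all 16 arrays.

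Other seven-beta-strand methyltransferases were called in both directions with cord injury, and most were not called. Of the list of 18, 10 had a matched probe, Mettl21c included, and 8 were kept; Mettl21e, its close relative in mouse muscle, and Eef1akmt2 were undetected on all 16 arrays. Of the 7 others kept, 2 rose, 1 fell and 4 were not called with SCI in CDTX muscle (median 0.22, all probes 0.01), and the counts were the same in saline muscle (median 0.08, all probes -0.01). With CDTX, 3 fell and none rose in sham (median -0.31), and 4 fell and none rose in SCI (median -0.48). Of all kept probes 29.8% and 29.5% were called with SCI and 48.9% and 42.9% with CDTX, so the totals called are near the background. By direction, 25.8% of kept probes were called lower with CDTX in sham and 22.5% in SCI. The falls among these few genes were above those shares, but under median scaling only 1 gene fell in each comparison. Differences of the 7 genes with SCI lay between -0.79 and 1.09 in CDTX muscle and between -0.80 and 0.82 in saline muscle.

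Mettl21a, the Hsp70 methyltransferase, rose with SCI by 0.72 (SE 0.14) in CDTX muscle and by 0.82 (SE 0.13) in saline muscle (limma, adjusted p = 0.000763 and 0.000115). Its log2 level was 5.52 to 5.92 in Sham+Saline, 5.10 to 5.36 in Sham+CDTX, 6.32 to 6.60 in SCI+Saline and 5.87 to 6.04 in SCI+CDTX, and 5.61 on SCI+CDTX 2. SCI arrays in the fit were above sham arrays with the same injection. It fell with CDTX by 0.47 in sham and 0.57 in SCI; median scaling turned the first to 0.15 and lost both calls, and the probe-pair score ended the call with SCI in CDTX muscle.

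Vcpkmt, the VCP methyltransferase, was called in none of the 4 comparisons, its differences lying between -0.04 and 0.29 with SE of 0.19 to 0.21. Its levels overlapped in all groups, at 4.55 to 5.50 in Sham+Saline, 5.01 to 5.40 in Sham+CDTX, 4.82 to 5.23 in SCI+Saline and 4.96 to 5.56 in SCI+CDTX. Eef1akmt1, the eEF1A methyltransferase, fell by 1.53 (SE 0.19) with CDTX in sham and rose by 1.09 (SE 0.21) with SCI in CDTX muscle (limma, adjusted p = 3.33e-06 and 0.000656). Sham+CDTX stood apart for this gene, at 7.23 to 7.80 against 8.32 to 9.33 in Sham+Saline, 8.77 to 9.20 in SCI+Saline and 8.33 to 8.67 in SCI+CDTX. SCI+CDTX 2 was at 7.09, and with the probe-pair score these differences of Eef1akmt1 were 0.40 and -0.49, not called.

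Antkmt, which methylates the mitochondrial ADP/ATP carrier, fell by 0.68 with CDTX in sham and by 0.80 with SCI in saline muscle; the first was 0.48 and not called with the probe-pair score. Mettl18, which methylates a histidine of ribosomal protein RPL3, fell by 0.79 with SCI in CDTX muscle and by 0.48 with CDTX in SCI, the first being 0.01 with the score and the second not called with all 16 arrays. Etfbkmt, which methylates the electron transfer flavoprotein, fell by 1.16 with CDTX in SCI. Atpsckmt, which methylates a subunit of ATP synthase, fell by 0.51 with CDTX in SCI and rose by 0.45 with SCI in saline muscle, the first not being called under median scaling.

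**Figure D4:**
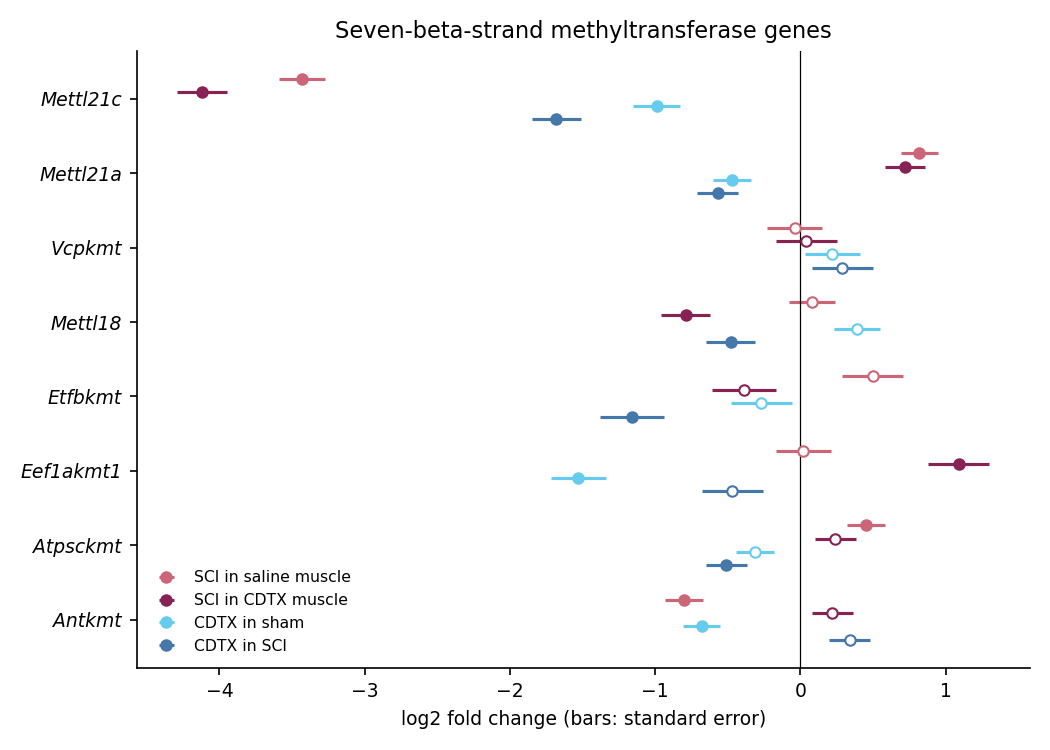
Log2 fold change (points, bars are standard errors) of the 8 kept seven-beta-strand methyltransferase genes in 4 comparisons; filled points had a limma adjusted p under 0.05 except for Mettl21c, which is filled throughout and untested for cord injury. Mettl21c reaches -4.12 and the 7 others lie between -1.53 and 1.09.

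A separate list of methyltransferases had 11 kept genes. With SCI, 1 rose and 2 fell in CDTX muscle (median -0.10), and 2 rose and 1 fell in saline muscle (median 0.11). With CDTX, 2 rose and 3 fell in sham (median -0.32), and 1 rose and 5 fell in SCI (median -0.43). These totals are near the 29.8%, 29.5%, 48.9% and 42.9% of all kept probes called in the same comparisons, and with the probe-pair score the 3 with SCI in CDTX muscle became 0 and the 5 with CDTX in sham became 2. Smyd1, a muscle SET-domain enzyme needed for sarcomere assembly, was called lower in all 4, as were 221 of 14763 kept probes (1.5%), by -0.61 and -0.92 with CDTX in sham and SCI and by -1.13 and -0.81 with SCI in CDTX and saline muscle. Median scaling turned the first of these to 0.19 and ended the call in saline muscle, and the probe-pair score ended that in CDTX muscle. Setd3, which methylates actin, fell by 0.83 with CDTX in sham and rose with SCI by 0.97 and 0.46. Smyd4 rose by 1.69 with SCI in saline muscle and fell by 1.10 with CDTX in SCI, its probe being detected on 2 of 4 Sham+Saline arrays. Ezh2, the histone methyltransferase of Polycomb, rose by 1.07 with CDTX in sham and fell by 0.99 with SCI in CDTX muscle. The score ended the calls of Setd3 and Ezh2 in both comparisons of Sham+CDTX, and median scaling that of Setd3 with CDTX in sham.

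The genes of proteins that these enzymes modify were called in both directions. Of 15 kept substrate genes, 2 rose and 3 fell with SCI in CDTX muscle (median -0.10), 4 rose and 2 fell in saline muscle (median -0.05), 4 rose and 2 fell with CDTX in sham (median -0.09), and 2 rose and 4 fell with CDTX in SCI (median -0.10). These totals too are near the 29.8%, 29.5%, 48.9% and 42.9% of all kept probes called. Vcp and the Hsp70 genes Hspa8 and Hspa5 are named after their values were seen. Vcp rose with SCI by 0.55 (SE 0.15) in CDTX muscle and 0.42 (SE 0.14) in saline muscle (limma, adjusted p = 0.00841 and 0.029), the first not called with the probe-pair score, and its differences with CDTX were -0.09 and 0.05. Hspa8, a constitutive Hsp70 chaperone, was not called in any comparison, with differences of 0.40 and -0.38 with SCI. Hspa5, the Hsp70 chaperone of the endoplasmic reticulum, rose by 1.59 (SE 0.21) with SCI in saline muscle and by 1.39 (SE 0.21) with CDTX in sham (limma, adjusted p = 1.25e-05 and 1.84e-05), the second turning to -0.56 with the probe-pair score, and differed by 0.39 with SCI in CDTX muscle (not called, but 1.99 and called with the score) and by 0.19 with CDTX in SCI (not called, but 0.59 and called under median scaling).

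Rpl3, the substrate of METTL18, rose in all 4 comparisons, by 1.24 and 1.00 with CDTX in sham and SCI and by 0.85 and 1.08 with SCI in CDTX and saline muscle, the value in CDTX muscle being 0.15 and not called with the probe-pair score. Hspa1l, an Hsp70 relative, fell with CDTX by 1.09 and 1.62 and with SCI in CDTX muscle by 0.63, the last turning to 1.30 with the score. Slc25a4, an ADP/ATP carrier, rose by 0.84 with CDTX in sham and fell by 0.95 with CDTX in SCI and 1.31 with SCI in CDTX muscle, but its probe was detected on 2 of 4 SCI+CDTX and 2 of 4 Sham+Saline arrays. All 3 calls of Slc25a4 were lost with all 16 arrays, and with the score the first turned to -2.42. Etfb, the electron transfer flavoprotein subunit, fell with CDTX by 1.02 and 0.48 and with SCI in saline muscle by 0.57, the last being -0.10 and not called under median scaling.

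Among 12 kept VCP cofactor genes, 3 rose and 2 fell with SCI in CDTX muscle (median 0.16), 5 rose and none fell in saline muscle (median 0.34), 2 rose and 4 fell with CDTX in sham (median -0.15), and 7 fell with CDTX in SCI (median -0.60). Of all kept probes 14.9% were called higher and 14.9% lower with SCI in CDTX muscle, and 14.8% higher with SCI in saline muscle. With CDTX, 23.1% were called higher and 25.8% lower in sham, and 22.5% lower in SCI. The 5 called with SCI in CDTX muscle became 3 with all 16 arrays and 2 with the probe-pair score. Aspscr1, a cofactor that also holds glucose transporter vesicles, rose by 1.60 with SCI in saline muscle and fell by 0.99 with CDTX in SCI; its call with CDTX in sham, at 0.48, was lost with all 16 arrays. Yod1, a deubiquitinase, fell by 0.46 and 1.12 with CDTX and by 0.88 with SCI in CDTX muscle, the first at 0.34 under median scaling and the last at 0.36 with the probe-pair score. Faf1 fell by 1.09 and 0.44 with CDTX and rose by 1.02 with SCI in CDTX muscle. Ubxn1 fell by 0.42 with CDTX in sham and rose with SCI by 0.97 and 0.75. With the score, no call of Faf1 was made, nor those of Ubxn1 with CDTX in sham and with SCI in CDTX muscle.

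Genes whose levels ran most like those of Mettl21c were found by Pearson's r of log2 levels over the 15 arrays. The arrays fall into 4 groups on 2 slides, so r mainly describes the order of group means, and it carries no test. Of 10951 other genes, 96 (0.877%) had r above 0.9 and 45 had r below -0.9, with a median of -0.001. The 10 highest were Lsmem1 (r = 0.973), Slc41a3 (0.971), Hhatl (0.971), Ldha (0.968), Map3k7cl (0.967), Cntnap2 (0.960), Atp1b1 (0.959), Arl3 (0.959), Serpine2 (0.957) and Ube2n (0.953). None had as wide a range as Mettl21c, which follows from its choice as the gene with the largest falls: their slopes on it were 0.21 to 0.68. Under Spearman's rho 3 of these 10 stayed among the first 10, with median scaling 5, and with all 16 arrays 8.

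Lsmem1 had log2 levels of 9.31 to 9.68 in Sham+Saline, 8.73 to 9.60 in Sham+CDTX, 6.50 to 7.42 in SCI+Saline and 5.98 to 6.58 in SCI+CDTX, and 7.59 on SCI+CDTX 2. Its groups overlapped between injections but not between surgeries, and the left-out array lay above all other SCI arrays. Slc41a3, a magnesium transporter, ran at 9.03 to 9.61, 8.34 to 8.76, 7.33 to 8.14 and 6.70 to 6.81 in the same order, and 7.02 on SCI+CDTX 2. As for Mettl21c, its 4 groups did not overlap. Slc41a3 fell with CDTX by 0.81 in sham and 0.97 in SCI, the first at -0.20 and not called under median scaling. These falls and the group order follow in part from picking the gene for its likeness to Mettl21c. They are given as a description with no test.

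Hhatl, a muscle protein related to Hedgehog acyltransferase, had group means of 10.79, 10.22, 8.94 and 7.95 in Sham+Saline, Sham+CDTX, SCI+Saline and SCI+CDTX. Ldha, lactate dehydrogenase A, had means of 13.85, 13.76, 13.14 and 12.84, and Map3k7cl had 6.78, 6.73, 5.33 and 4.61. Cntnap2, a contactin-associated membrane protein, had means of 7.73, 7.18, 5.70 and 5.24, and Atp1b1, a sodium pump subunit, 9.95, 9.29, 7.90 and 7.45. Arl3, a small GTPase, Serpine2, a protease inhibitor, and Ube2n, a ubiquitin-conjugating enzyme, fell with SCI by 1.07, 1.74 and 1.07 in CDTX muscle and by 0.80, 1.73 and 1.18 in saline muscle. Each of the 10 was called lower with SCI under both injections, a pattern fixed in part by likeness to a gene chosen for it. With the probe-pair score, Lsmem1, Ldha, Arl3, Serpine2 and Ube2n were not called in CDTX muscle.

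The genes running most against Mettl21c were Prep, a peptidase (r = -0.954), Nt5c, a nucleotidase (-0.947), Cryab, the small heat shock protein alpha-B crystallin (-0.943), Polr1c, a polymerase subunit (-0.942), and Eif6, a ribosome assembly factor (-0.941). Cryab had group means of 11.65 in Sham+Saline, 12.12 in Sham+CDTX, 12.81 in SCI+Saline and 13.07 in SCI+CDTX. Eif6 had 9.15, 9.47, 10.55 and 10.65. With SCI these 5 genes were higher by 0.88 to 1.81 in CDTX muscle and by 0.77 to 1.39 in saline muscle, where with the probe-pair score Prep, Nt5c, Polr1c and Eif6 were not called in CDTX muscle.

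**Figure D5:**
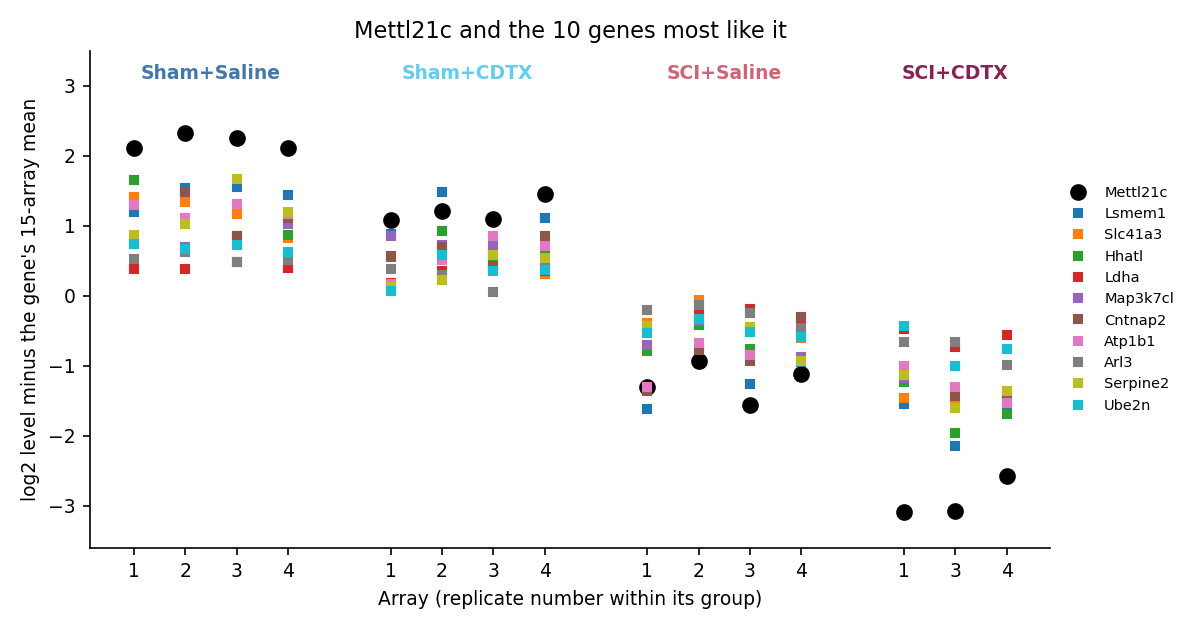
Log2 level minus the gene's mean over 15 arrays for Mettl21c (black circles) and the 10 genes with the highest r (coloured squares), by array and group. Sham arrays lie above 0 and SCI arrays below for all 11 genes, and Mettl21c, chosen for its large falls, has the widest spread.

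The genes next to Mettl21c on chromosome 1 were also read. None of the 7 kept was called lower with cord injury, where 14.9% and 14.6% of all kept probes were, so a count of 0 is near the background. The 5 genes with a probe on the lower-coordinate side were, outward, Tpp2, Uxs1, Ecrg4, Fhl2 and AI597479, and on the other side Poglut2, Bivm, Ercc5, Mettl21e and Gulp1, with order from the RefSeq gene table of GRCm38.p6. Uxs1, Bivm and Mettl21e were not kept. Of the 7 kept, none was called with SCI in CDTX muscle (median 0.02; limma, adjusted p from 0.0518), and 2 rose with SCI in saline muscle (median -0.07). Those were Tpp2, a peptidase gene next to Mettl21c, higher by 1.02, and Fhl2, a LIM-domain protein gene, higher by 0.90. Tpp2 had log2 levels of 6.70 to 7.34 in Sham+Saline, 7.05 to 7.20 in Sham+CDTX, 7.62 to 8.17 in SCI+Saline and 7.36 to 7.46 in SCI+CDTX, and 8.34 on SCI+CDTX 2. With CDTX, 1 neighbour rose and 2 fell in sham (median 0.15) and 4 fell in SCI (median -0.51). Of all kept probes 23.1% were called higher and 25.8% lower with CDTX in sham (median -0.04), and 22.5% lower in SCI (median -0.05). With SCI in saline muscle 14.8% were called higher. Poglut2 rose by 0.58 in sham. Ercc5, a DNA repair nuclease, fell by 0.75 and 0.51 and AI597479 by 0.52 and 0.58, of which the values in sham turned to 0.05 and 0.31 under median scaling. Ecrg4 and Gulp1 were called in none of the 4 comparisons.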

How the data were processed

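Mettl21c and the gene lists were chosen with earlier results of these data known. RNA of 16 muscle samples was measured on Illumina BeadChips; the deposited table gives mean bead intensity for 25697 probes with no normalization, per the file headers, beside a detection p-value and a bead number. In 2 further tables the authors deposited intensity after average normalization and background subtraction, as each group's mean, lowest and highest value. To the one of their final analysis the authors added a score and a p-value for the difference from SCI+CDTX. Both were made with GenomeStudio 2011.1 per the submitters' processing notes (gene expression module 1.9.0 per the file headers). No column of per-sample values was left unused (0 columns).

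Intensities of 15 arrays were corrected with limma's neqc, which estimates the background from detection p-values, then quantile normalized, and log2 was taken after adding 16 (limma 3.58.1, R 4.3.3, data.table version 1.17.8), which understates folds of dim probes. A probe was kept if 3 or more arrays detected it at p under 0.05 (14763 probes, 10952 genes). Symbols were updated through the RefSeq gene table of GRCm38.p6 for 23681 probes. A single linear model of the 4 groups covered every kept probe (lmFit, contrasts.fit, eBayes), and adjusted p-values (Benjamini-Hochberg, under 0.05 called) run over all of them. A gene is represented by its brightest kept probe. The number of arrays limits the precision. The procedure was tested on simulated data.

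The genes named were Mettl21c; the seven-beta-strand methyltransferases with a probe; 5 neighbours on each side; the 10 highest and 5 lowest correlations over arrays and the 5 highest of deviations from group means (apart from a gene not reported here); the 5 next in the ranking by cord injury; and, of every other list, up to 4 members called in the most comparisons. Marker lists for cell types are given as sums. Alternatives were all 16 arrays, those with the probe-pair score (the first component of the differences between each gene's 2 brightest probes, 33.2% of their variance) as covariate, median scaling, raw intensities without background correction, slides normalized separately, all probes without the detection filter, only the groups compared, a replicate block, and each array left out. Replicate numbers are shared by the groups, but same-numbered arrays did not deviate together.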

Additional observations from a re-analysis of the deposited data

Results flagged for a closer look

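The interaction of Mettl21c, -0.69 on the log2 scale, is its CDTX difference in SCI mice minus that in sham mice in the limma fit, and is listed here as a difference between groups. It equals the difference between the SCI effects on which the gene was chosen (-4.12 and -3.43), so no test is drawn from it, and its size and sign changed with the setting, as given in the report.

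Of 140 groups of 4 arrays (35 genes in 4 groups, levels from all 16 arrays normalized together), 3 held an array far from its group. Chance flags about 1 in 20 groups, which is more than was found here. In Sham+CDTX, Vcpkmt stood at 5.04 on array 1 and at 5.39 to 5.44 on the others. Antkmt in Sham+Saline was at 10.4 on array 3 and at 10.79 to 10.86 on the others. In SCI+CDTX, Tpp2, the gene next to Mettl21c, was at 8.34 on array 2, the array excluded by the authors, and at 7.40 to 7.49 on the others. Mettl21c itself had no such array in any group.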

How the results depend on the processing

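For Mettl21c, the differences with CDTX kept their direction and call under all 8 other settings tried, from -1.79 to -0.48 in sham (adjusted p at most 0.0198) and from -1.80 to -0.61 in SCI (adjusted p at most 0.000127), and with each array left out (-1.08 to -0.95 and -1.85 to -1.58). Its interaction was -0.58 with all 16 arrays, -0.01 with the probe-pair score, 0.28 with no background correction and -0.69 with no detection filter, as a description with no test, and -0.85 to -0.58 with 1 array left out. The SCI difference in CDTX muscle moved to -3.50 with the score and -2.29 with no background correction, and that in saline muscle to -2.57 with no background correction and -3.68 with only the groups compared; with 1 array left out they ran from -4.29 to -4.03 and from -3.50 to -3.29. The cause of these changes was not tested.

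Called seven-beta-strand genes went from 3 to 1 with CDTX in sham and from 3 to 0 with SCI in CDTX muscle under the score, and under median scaling from 4 to 2 with CDTX in SCI and from 3 to 5 with SCI in saline muscle. Called substrate genes with SCI in CDTX muscle went from 5 to 3 with all 16 arrays and 2 with the score. Of the 56 counts of these lists 50 stayed within 1.5 times, and of 112 counts of the other 4 lists 92 did.

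Over all probes, calls for SCI in CDTX muscle went from 4393 to 2613 with all 16 arrays and 262 with the score, those for CDTX in sham from 7219 to 3094 with the score, and interaction calls from 3483 to 1532 and 43. Median scaling moved the share of calls that were higher to 85.1% with CDTX in sham and to 86.4% with SCI in saline muscle, from near even, with medians of all probes of 0.32 and 0.17.

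With the replicate block, Mettl21c differed by -0.99, -1.64, -0.65, -4.07 and -3.43 in the order CDTX in sham, CDTX in SCI, interaction, SCI in CDTX muscle and SCI in saline muscle, and neither of its CDTX calls changed. Calls over all probes in that order went from 7219 to 7073, 6338 to 5842, 3483 to 3179, 4393 to 4034 and 4350 to 4215. Deviations of same-numbered arrays correlated at -0.27 to 0.38, with 3 of 21 pairs above 0.1, and 3 of 15 arrays correlated best with their own number, so the numbers were not taken to pair the arrays.

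In SCI+CDTX the probe lay at 1.16 to 1.43 times background, so its level there, and the size of any fold against it, depends on the background step.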

Other observations

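Likeness to Mettl21c within groups was of another kind than likeness over all arrays. Correlations of deviations from group means ran from -0.879 to 0.844 over 10951 genes and 15 arrays, and among the highest were Epgn, an epidermal growth factor relative (0.844), LOC100045044 (0.800), Adm, the vasodilator adrenomedullin (0.783), and Akt2, an insulin-signalling kinase (0.762). Over all arrays these genes had r between -0.50 and 0.11. LOC100045044 lay near the detection limit throughout, detected on 0 of 4 SCI+CDTX, 0 of 4 Sham+Saline, 1 of 4 Sham+CDTX and 2 of 4 SCI+Saline arrays, and Epgn was detected on 0 of 4 Sham+Saline and 2 of 4 Sham+CDTX arrays. Akt2 rose with SCI in saline muscle by 1.55 (limma, adjusted p = 1.91e-06) and fell with CDTX in SCI by 1.17 (adjusted p = 6.03e-05), from levels of 6.12 to 6.51 in SCI+Saline. Of the 10 genes most like Mettl21c over all arrays, Lsmem1 (0.547) and Slc41a3 (0.493) had the highest correlations within groups, and Map3k7cl the lowest (-0.240).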
